A study of Mus musculus with 12 samples.

Results

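The chondroitin sulfate proteoglycans and tenascins are the part of the extracellular matrix most often discussed as a barrier around a spinal cord lesion. The account covers 10 genes, chosen by name: Acan, Bcan, Ncan, Vcan, Cspg4, Cspg5, Ptprz1, Tnc, Tnr and Xylt1. All 10 were found among the 16389 genes of the expression table, and all 10 were among the 16388 genes tested. The cells came from adult male Aldh1l1-EGFP mice on a Swiss Webster background, in which the promoter of the astrocyte gene Aldh1l1 drives eGFP in every group, and live eGFP+ cells were sorted from the dissociated thoracic cord. The 5 groups were non-injured controls (NI, 3 libraries), lateral hemisection (HS) at 1 week (3 libraries) and at 2 weeks (2 libraries), and full transection (FT) at 1 week (1 library) and at 2 weeks (3 libraries). Tissue around the lesion, or the matching thoracic segment of NI mice, was taken, and since more mice than libraries were used a library may pool several animals. What separates the libraries of a group is not given in the labels, so the p-values measure the spread between these libraries, and the only FT 1 week library has no replicate. The study asked how these cells differ with the severity of a lesion and the time after it.

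Chondroitin sulfate proteoglycans are core proteins that carry long sulfated sugar chains. Aggrecan, brevican, neurocan and versican (Acan, Bcan, Ncan, Vcan) are the lecticans, which bind hyaluronan at one end and tenascins at the other and so tie the matrix of the nervous system together. Cspg4 (NG2) and Cspg5 (neuroglycan C) cross the cell membrane, and Ptprz1 is a receptor tyrosine phosphatase whose secreted form is the proteoglycan phosphacan. Tnc and Tnr encode tenascin-C and tenascin-R, matrix glycoproteins that bind lecticans, and Xylt1 encodes the xylosyltransferase that starts the sugar chain on the core protein. Around a lesion such chains are known to inhibit axon growth. Astrocytes are a well known source of several of these proteins, and oligodendrocyte progenitors are known for Cspg4 and Vcan.

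The promoters of 3 members are shown because these genes had the clearest library to library patterns: Vcan and Tnr, which stood highest in the same 3 libraries, and Tnc, the only member above NI in every HS library. The letters are the 250 bases before the start given by RefSeq (GRCm38.p6), 5′ to 3′ on the strand of the gene, with matches to the searched motifs in capitals. They lie at chr13:89742513-89742762 (minus strand) for Vcan, chr1:159523519-159523768 (plus strand) for Tnr and chr4:64047016-64047265 (minus strand) for Tnc.
Vcan: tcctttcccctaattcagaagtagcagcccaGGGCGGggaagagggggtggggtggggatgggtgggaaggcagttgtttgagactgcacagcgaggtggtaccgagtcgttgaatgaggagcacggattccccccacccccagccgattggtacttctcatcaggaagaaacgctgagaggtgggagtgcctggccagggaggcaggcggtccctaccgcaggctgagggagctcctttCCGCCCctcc
Tnr: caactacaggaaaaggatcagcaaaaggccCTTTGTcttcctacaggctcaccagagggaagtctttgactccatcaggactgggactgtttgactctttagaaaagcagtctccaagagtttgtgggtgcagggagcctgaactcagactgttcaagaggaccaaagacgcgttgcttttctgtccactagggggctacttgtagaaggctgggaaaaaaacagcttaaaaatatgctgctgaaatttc
Tnc: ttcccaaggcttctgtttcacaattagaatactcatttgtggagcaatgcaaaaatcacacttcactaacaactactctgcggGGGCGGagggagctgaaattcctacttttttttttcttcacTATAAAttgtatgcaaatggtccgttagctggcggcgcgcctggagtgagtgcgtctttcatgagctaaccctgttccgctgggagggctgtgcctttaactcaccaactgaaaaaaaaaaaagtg
The motifs were TTCNNNGAA (the STAT core), ACAAAG (the SOX core), GGGCGG (the GC box) and TATAAA (the TATA box), each searched on both strands. The Vcan window held 2 GC box matches, the Tnr window 1 SOX core match, and the Tnc window 1 GC box and 1 TATA box match, while TTCNNNGAA was in none of the 3. The promoter table gives Tnc another start further downstream, whose overlapping window at chr4:64046937-64047186 holds the same GC box and TATA box matches at a GC content of 51.2%. Over all 32851 RefSeq promoter windows of this length, 32.7% held GGGCGG, 16.5% ACAAAG, 12.4% TATAAA and 7.02% TTCNNNGAA. The GC content was 62.4% for Vcan, 46.8% for Tnr and 44.8% for the Tnc window shown, against a median of 52.4% over all windows. Of the 10 members, 8 had an entry in the promoter table, all except Cspg5 and Xylt1.

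The libraries held 8270643 to 15562378 reads assigned to genes. Values below are normalized counts, the reads of a gene divided by a single factor for its library. The 10 astrocyte markers were detected in all 12 libraries, but their sum ran from 652 to 8542, and Aldh1l1 itself from 10.2 to 127. Sums of 10 oligodendrocyte markers were higher in every library, at 55120 to 115042, and those of 14 microglia and macrophage markers were 862 to 13935. Sums of 10 oligodendrocyte progenitor markers, which include no member, stood at 986 and 1045 in NI replicates 2 and 3 and at 1089 in HS 1 week replicate 3, and at 227 to 368 in the other 9 libraries. Pericyte and fibroblast markers summed to 261 to 2786, and endothelial (14.2 to 49.6), neuronal (12.8 to 85.3) and Schwann cell markers (9.72 to 99.0) were low, while ependymal markers ran from 8.06 to 183, with no marker of any list at 0 in any library. In such bulk samples fewer cells of a type and less RNA per cell cannot be told apart.

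In NI libraries brevican was the most abundant member per length of its exons, at 52.1 ± 24.8 normalized counts per kb (SD, n = 3). Ptprz1 (8.68 ± 1.80), Ncan (8.45 ± 3.57), Vcan (7.13 ± 2.22), Cspg5 (6.73 ± 2.94), Cspg4 (4.55 ± 2.40) and Tnr (2.21 ± 1.51) followed on the same per kb scale. Xylt1 (0.386 ± 0.125), Tnc (0.309 ± 0.0835) and Acan (0.214 ± 0.0318) were lowest. Only brevican lay apart from the next gene in this order, since the NI values of every other pair of neighbours overlapped. The lengths are the union of all annotated exons (GENCODE M21, GRCm38), so a gene with many isoforms is set somewhat low.

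**Figure D1:**
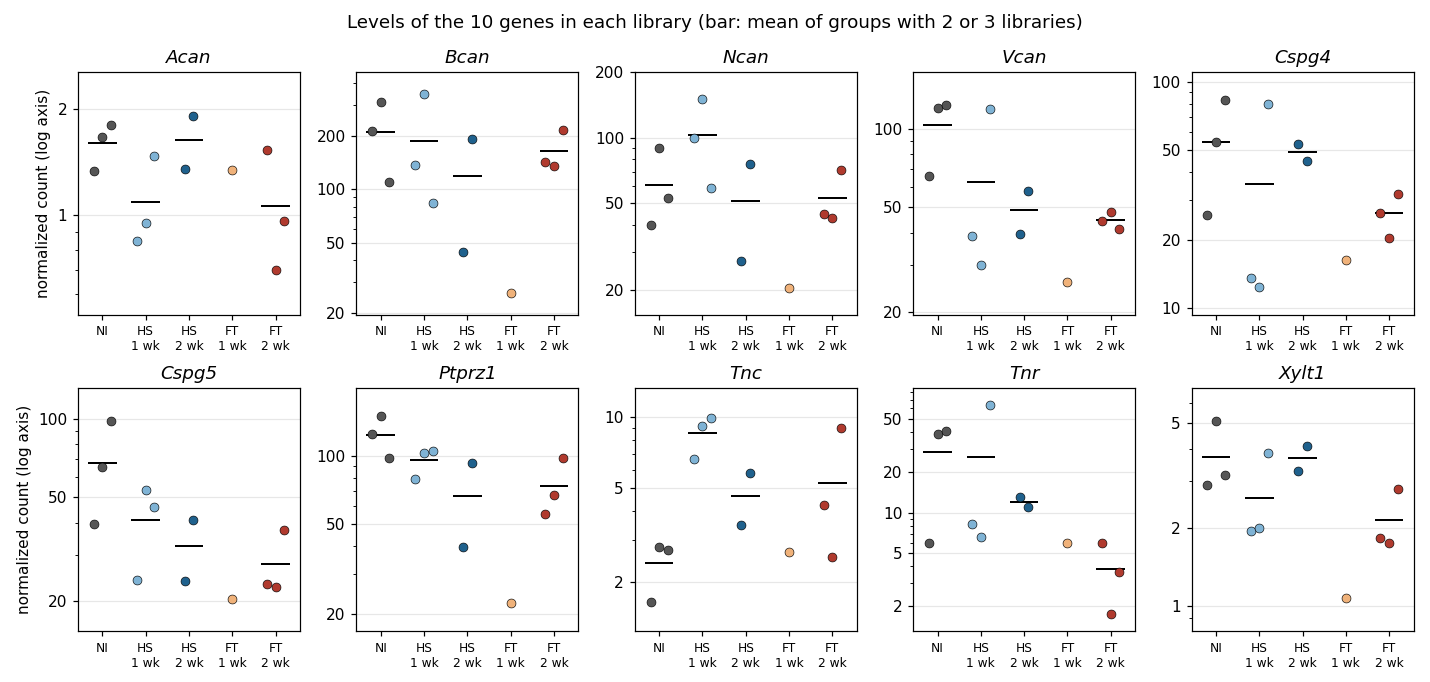
Normalized counts (log axis) of the 10 genes in each of the 12 libraries, with a bar at the mean of each group of 2 or 3 libraries. All 3 HS 1 week libraries lie above NI for Tnc (6.67 to 9.97 against 1.65 to 2.81), and the single FT 1 week library is the lowest of all 12 for Bcan, Ncan, Vcan, Cspg5, Ptprz1 and Xylt1.

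Among the lecticans, Bcan (chr3:87987531-88000230, minus strand), the main lectican of adult glia, stood at 214, 311 and 110 normalized counts in the 3 NI libraries. It was at 137, 344 and 83.4 at 1 week and at 44.2 and 193 at 2 weeks after HS. After FT it was at 26.2 in the 1 week library and at 143, 135 and 215 at 2 weeks. The FT 1 week library lay below all others, while every other injured group overlapped NI. The group means were 212 ± 101 (SD, n = 3) in NI, 188 ± 138 (n = 3) and 119 ± 105 (n = 2) after HS and 164 ± 44.4 (n = 3) at 2 weeks after FT, so the spread within a group was as large as the differences between them. Bcan was lowest in the 4 libraries whose astrocyte marker sums were lowest, which are FT 1 week (sum 1242), HS 2 weeks replicate 1 (942), HS 1 week replicate 3 (652) and NI replicate 3 (799), against sums of 4024 or more elsewhere. The part of this in the Bcan differences was not tested.

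Ncan (chr8:70093085-70120873, minus strand), a lectican known for its synthesis by astrocytes after injury, was at 40.0, 89.6 and 52.9 normalized counts in NI. Its values were 99.7, 151 and 58.8 at 1 week and 27.1 and 75.9 at 2 weeks after HS. They were 20.5 at 1 week and 44.6, 42.9 and 71.5 at 2 weeks after FT. HS at 1 week held the highest values, with 2 of its 3 libraries above all of NI and the third within the NI range, and the log2 change from NI was 0.73 ± 0.45 (SE; limma-trend adjusted p = 0.715). Leaving out HS 1 week replicate 2 gave 0.41 and leaving out HS 1 week replicate 3 gave 1.08.

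Vcan (chr13:89655312-89742509, minus strand), the lectican of progenitors and fibroblasts, was at 66.2, 120 and 124 normalized counts in NI. It was at 38.8, 30.2 and 119 at 1 week and 39.6 and 58.0 at 2 weeks after HS. It was at 25.9 at 1 week and 44.6, 48.1 and 41.5 at 2 weeks after FT. All 3 FT 2 weeks libraries and both HS 2 weeks libraries were below the lowest NI library, and the FT 2 weeks libraries lay close together, at 44.7 ± 3.31 (SD, n = 3) against 103 ± 32.1 in NI. HS 1 week replicate 3 was as high as NI, and it shares with NI replicates 2 and 3 the high sums of oligodendrocyte progenitor and of ependymal markers. The ratio of Bcan to Vcan within a library, in normalized counts, ran from 0.701 in HS 1 week replicate 3 and 0.886 in NI replicate 3 to 11.4 in HS 1 week replicate 2.

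Acan (chr7:79053483-79115099, plus strand), the main lectican of perineuronal nets around neurons, was near the limit of these libraries, with 6 to 26 reads each. Its levels were 1.34 to 1.80 normalized counts in NI and 0.699 to 1.90 in the injured libraries, and it varied least of the 10 members, by 2.72-fold between the lowest and highest library. The 95% limma-trend interval of its log2 change at HS 1 week was -0.79 to 0.15, and a change within it was not detectable at this depth.

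Of the proteoglycans that cross the membrane, Ptprz1 (chr6:22875502-23052916, plus strand) was at 124, 149 and 97.8 normalized counts in NI. It was at 79.2, 103 and 105 at 1 week and 39.6 and 93.0 at 2 weeks after HS. It was at 22.4 at 1 week and 55.5, 66.9 and 98.2 at 2 weeks after FT. The FT 1 week library was lowest of all, both HS 2 weeks libraries were below NI, and 1 of the 3 FT 2 weeks libraries (98.2) reached the lowest NI value. The log2 change at FT 1 week was -2.39 ± 0.45 (SE), or 0.191 times NI, the largest of any member relative to its error, with a limma-trend adjusted p of 0.0545. A negative binomial likelihood ratio test in edgeR, the kind of model the study used, gave a log2 change of -2.46 with an adjusted p of 0.00768, DESeq2 -2.45 with 0.000592, and the quasi-likelihood test of edgeR an adjusted p of 0.11. The limma-trend adjusted p was 0.0468 without HS 1 week replicate 3, 0.0192 without HS 2 weeks replicate 1 and 0.0193 without HS 2 weeks replicate 2, which are libraries outside this comparison that enter only the estimate of the spread.

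Cspg5 (chr9:110243783-110262576, plus strand), an EGF domain proteoglycan of neurons and glia, was at 39.5, 65.3 and 98.7 normalized counts in NI. It was at 24.1, 53.2 and 45.8 at 1 week and 23.8 and 41.0 at 2 weeks after HS. It was at 20.4 at 1 week and 23.2, 22.6 and 37.6 at 2 weeks after FT. All FT libraries at both times were below the lowest NI library, whereas HS libraries overlapped NI at both times. The log2 change was -1.20 ± 0.39 (SE) at FT 2 weeks, with a limma-trend adjusted p of 0.358.

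Cspg4 (chr9:56865033-56899870, plus strand), a marker of oligodendrocyte progenitors and pericytes, was at 25.8, 54.1 and 83.1 normalized counts in NI. It was at 13.6, 12.4 and 79.5 at 1 week and 53.0 and 44.8 at 2 weeks after HS. It was at 16.3 at 1 week and 26.2, 20.4 and 32.0 at 2 weeks after FT. Values spread widely within NI and within HS 1 week, where replicate 3 was about as high as the highest NI library and the other 2 were the lowest of all 12. The log2 change was -0.99 ± 0.62 (SE; limma-trend adjusted p = 0.719) at HS 1 week and -0.0041 ± 0.70 (adjusted p = 0.999) at HS 2 weeks.

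The tenascins differed from each other. Tnc (chr4:63959785-64047015, minus strand), the tenascin of development and wound repair, was low in NI at 1.65, 2.81 and 2.74 normalized counts, which are 21, 44 and 38 reads. It was at 6.67, 9.20 and 9.97 at 1 week and 3.49 and 5.79 at 2 weeks after HS. It was at 2.69 at 1 week and 4.24, 2.56 and 9.04 at 2 weeks after FT. All 5 HS libraries were above the highest NI library, the FT 1 week library was within the NI range, and the FT 2 weeks libraries spread from within that range to well above it. The mean was 8.61 ± 1.73 (SD, n = 3) at HS 1 week against 2.40 ± 0.649 in NI, a log2 change of 1.5 ± 0.38 (SE) or 2.83-fold, with an unadjusted limma-trend p of 0.0022 and an adjusted p of 0.388. DESeq2 gave a log2 change of 1.86 with an adjusted p of 0.0243, and the adjusted p was 0.0925 by the edgeR likelihood ratio test and 0.425 by its quasi-likelihood test. Of the 7772 exon bases of Tnc, 176 overlap a gene on the other strand, 8030451A03Rik, and as the kit is not stated to keep the strand, reads there cannot be told apart.

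Tnr (chr1:159523769-159931729, plus strand), the tenascin of oligodendrocyte lineage cells and perineuronal nets, was at 5.97, 38.5 and 40.7 normalized counts in NI. It was at 8.24, 6.59 and 63.9 at 1 week and 13.2 and 11.1 at 2 weeks after HS. It was at 5.91 at 1 week and 5.99, 1.75 and 3.63 at 2 weeks after FT. With a 36.5-fold range it varied most of all members, and its 3 highest libraries were the same 3 that had the high progenitor sums. The fourth highest library was at 13.2. NI replicate 1 (5.97) was no higher than FT 2 weeks replicate 1 (5.99), so the groups overlapped. The log2 change at FT 2 weeks was -2.34 ± 0.85 (SE), or 0.198 times NI, with a limma-trend adjusted p of 0.404, while the likelihood ratio test gave -2.90 with an adjusted p of 0.0191 and DESeq2 -2.87 with 0.0272. Without NI replicates 2 and 3 and HS 1 week replicate 3 the log2 change was -0.64 (limma-trend adjusted p = 1.00). The ratio of Tnr to Tnc within a library, in normalized counts, was 3.62, 13.7 and 14.9 in NI and 1.41, 0.682 and 0.402 at 2 weeks after FT. Of the 12867 exon bases of Tnr, 443 overlap Gm38039 on the other strand.

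Xylt1 (chr7:117380979-117673580, plus strand) was at 2.91, 5.11 and 3.17 normalized counts in NI, from 8 to 80 reads over the 12 libraries. It was at 1.94, 2.00 and 3.85 at 1 week and 3.27 and 4.10 at 2 weeks after HS. It was at 1.07 at 1 week and 1.83, 1.75 and 2.82 at 2 weeks after FT. All 4 FT libraries were below the lowest NI library, while HS libraries overlapped NI. The log2 change was -1.16 ± 0.40 (SE; limma-trend adjusted p = 0.305) at FT 1 week and -0.58 ± 0.28 (adjusted p = 0.493) at FT 2 weeks.

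At 1 week after HS, Tnc stood above NI in all libraries, Ncan was higher on average, and the other 8 members had log2 changes below 0, with a median over the 10 of -0.38 against -0.03 over all genes tested. A gene was called when the limma-trend adjusted p, over all 16388 genes, was under 0.05 and the change at least 2-fold. By this rule 0 of the 10 members were called, against 0.0061% of all genes. The likelihood ratio test called 0 members (0.372% of all genes), the quasi-likelihood test 0 (0.0061%) and DESeq2 only Tnc (0.513%). At an unadjusted limma-trend p under 0.05, 1 member was higher, Tnc (4.31% of all genes), and 0 were lower (3.35%). Tnc was also the 1 member whose libraries were all higher than NI without overlap, as were 7.31% of all genes.

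At 2 weeks after HS, Tnc was again above NI in both libraries and Vcan and Ptprz1 were below NI in both. The median log2 change was -0.56, against -0.02 over all genes. No member was called by limma-trend (0.0122% of all genes), by the likelihood ratio test (0.757%), by the quasi-likelihood test (0.0122%) or by DESeq2 (0.69%). At an unadjusted limma-trend p under 0.05, 2 members were lower, Cspg5 with a log2 change of -0.997 and Ptprz1 with -0.992 (3.66% of all genes). Without overlap with NI, 1 member was higher (12.9% of all genes) and 2 were lower (11.6%).

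At 1 week after FT, the single library was below NI for most of these genes: 8 of the 10 members, all except Acan and Tnc, were below the lowest NI value, as were 30.1% of all genes. The sum of the 10 members was 143 normalized counts there, against 522, 837 and 614 in NI and 249 to 712 in the other injured libraries. The median log2 change was -1.56, against -0.02 over all genes, with Bcan (-2.84), Ptprz1 (-2.39) and Vcan (-1.90) lowest. By limma-trend 0 members were called (0.452% of all genes), and 6 were lower at an unadjusted p under 0.05 (6.65%), namely Bcan, Ncan, Vcan, Cspg5, Ptprz1 and Xylt1. The likelihood ratio test called Ptprz1 (1.81% of all genes), DESeq2 called Ptprz1 and Bcan (2.26%), the latter with a log2 change of -3.00 and an adjusted p of 0.0271, and the quasi-likelihood test called 0 members (0.427%). This library also had an astrocyte marker sum of 1242, against 799 to 4457 in NI, and a microglia and macrophage marker sum of 12542, against 862 to 7338 in NI. The part of either in these differences was not tested, and with 1 library the injury and the library cannot be told apart.

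At 2 weeks after FT, Vcan, Cspg5 and Xylt1 were below NI in all 3 libraries, and 7.99% of all genes were lower without overlap. The median log2 change of the members was -0.67, against -0.01 over all genes, while Bcan (-0.27) and Ncan (-0.15) were close to NI. By limma-trend 0 members were called (0.0427% of all genes), and 4 were lower at an unadjusted p under 0.05 (5.93%), namely Vcan, Cspg5, Ptprz1 and Tnr. Tnr was the only member called by the likelihood ratio test (2.22% of all genes) and by DESeq2 (2.03%), and the quasi-likelihood test called 0 (0.0244%).

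The mean of the 4 injured groups was set against NI in the same model, using the same libraries as the 4 comparisons above. Each group had the same weight in this mean, so the single FT 1 week library counted as much as a replicated group. For Ptprz1 the log2 change was -2.39 at FT 1 week. It was -0.36 at HS 1 week, -0.992 at HS 2 weeks and -0.76 at FT 2 weeks. In the same order Cspg5 was at -1.59, -0.69, -0.997 and -1.20, and Vcan at -1.90, -0.92, -1.04 and -1.14. The mean without FT 1 week was not tested. The values below are for the mean of all 4 groups. Ptprz1 had a log2 change of -1.13 ± 0.27 (SE; limma-trend adjusted p = 0.118), Vcan -1.25 ± 0.37 (0.186) and Cspg5 -1.12 ± 0.33 (0.183), while Tnc was at 0.78 ± 0.31 (0.306). No member was called by limma-trend (0.293% of all genes), and 4 were lower at an unadjusted p under 0.05 (7.1%), which were Vcan, Cspg5, Ptprz1 and Xylt1, with 1 higher (6.77%), which was Tnc. The likelihood ratio test called Vcan, Cspg5 and Ptprz1 (4.09% of all genes), with adjusted p of 0.0176, 0.0102 and 0.0086. DESeq2 called Cspg5 (adjusted p = 0.0316) and Ptprz1 (0.0154), with 3.31% of all genes, and the quasi-likelihood test called 0 (0.195%).

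**Figure D2:**
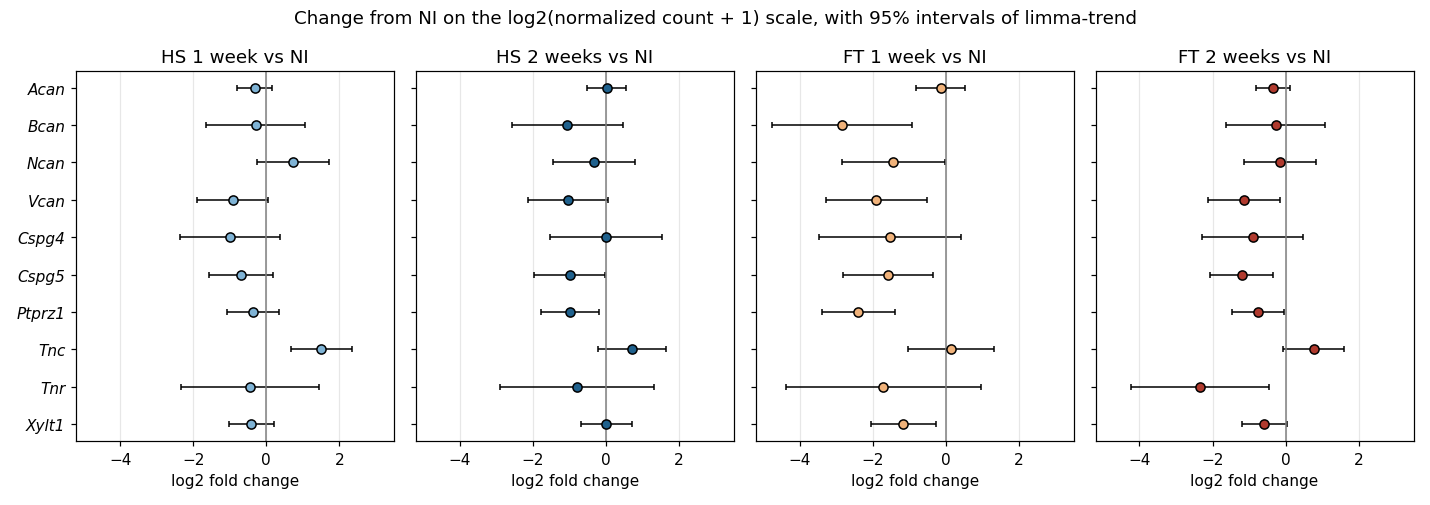
Change of each gene from NI on the log2(normalized count + 1) scale in the 4 injured groups; points are limma-trend estimates and bars their 95% intervals. The interval lies above 0 for Tnc at HS 1 week (log2 change 1.5) and below 0 for 6 genes at FT 1 week, among them Ptprz1 (-2.39), before any correction over genes.

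The 2 severities were compared at each time. FT has 1 library at 1 week, so the severity and that library cannot be told apart there. The errors at 1 week take the spread from the replicated groups. The astrocyte marker sum of that library was 1242, against 652 to 8542 at HS 1 week, and the part of this was not tested. At 1 week the log2 difference of FT from HS was -2.03 ± 0.45 (SE; limma-trend adjusted p = 0.158) for Ptprz1. It was -2.55 (0.594) for Bcan, -2.17 (0.42) for Ncan and -1.37 (0.751) for Tnc. These 4 members had an unadjusted p under 0.05, as had 3.31% of all genes in this direction. No member was called by limma-trend (0.348% of all genes), the likelihood ratio test (0.696%) or the quasi-likelihood test (0.226%), and DESeq2 called Ptprz1 (adjusted p = 0.0141; 0.763% of all genes). At 2 weeks no member had an unadjusted limma-trend p under 0.05 between FT and HS, and 370 of the 16388 genes had one. At this time 0 of all genes were called by limma-trend, the likelihood ratio test, the quasi-likelihood test or DESeq2 (0% by each). There Tnr had the largest difference, at 3.79 ± 2.13 (SD, n = 3) normalized counts after FT and 12.1 ± 1.49 (n = 2) after HS, a log2 difference of -1.55 with a 95% interval of -3.66 to 0.56. Tnc differed little at 2 weeks, by 0.05 with an interval of -0.87 to 0.98.

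Between 1 and 2 weeks after HS, Tnc was at 8.61 ± 1.73 (SD, n = 3) and then 4.64 ± 1.63 normalized counts (n = 2), with no overlap, a log2 difference of -0.78 ± 0.42 (SE; limma-trend adjusted p = 1.00). Ncan was at 103 ± 46.1 and 51.5 ± 34.5, a log2 difference of -1.06 ± 0.50. No member had an unadjusted limma-trend p under 0.05 in this comparison. Of the 16388 genes, 266 passed that threshold and 0 were called by any of the 4 tools (0% by each). FT has 1 library at 1 week, so in the next comparison the time and that library cannot be told apart. Between 1 and 2 weeks after FT, the log2 difference was 2.57 ± 0.87 (SE; limma-trend adjusted p = 0.39) for Bcan and 1.63 ± 0.45 (0.256) for Ptprz1. These were the 2 members with an unadjusted p under 0.05 (5.93% of all genes in this direction), and 0 members were called by limma-trend (0.384% of all genes), the likelihood ratio test (1.31%), the quasi-likelihood test (0.244%) or DESeq2 (1.35%).

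The high progenitor marker sums were found in 2 of the 3 NI libraries and in 1 of the 9 injured libraries. The ependymal marker sums were high in the same 3, at 183, 106 and 111 against 8.06 to 39.8 in the other 9. Of the ependymal markers, Foxj1 in HS 1 week replicate 3 (5.63) was within the range of those 9 (1.57 to 6.25). The progenitor sum of HS 1 week replicate 3 was carried mostly by Gpr17 (552 normalized counts) and Neu4 (130). In that library 8 of the 10 progenitor markers were above all of the other 9 libraries, but Olig1 (93.3) and Olig2 (30.8) were within their range, while 9 and 10 of the 10 were above it in NI replicates 2 and 3. Vcan was at 120, 124 and 119 normalized counts in NI replicates 2 and 3 and HS 1 week replicate 3, and its next highest library was NI replicate 1 at 66.2. Cspg4 was also highest in these 3 libraries, at 54.1, 83.1 and 79.5, but HS 2 weeks replicate 1 was close behind at 53.0. With these 3 libraries left out, a choice made after seeing the data, NI has 1 library. The log2 change over all injured groups was then -0.82 for Vcan (from -1.25), -0.48 for Cspg5 (from -1.12), -0.17 for Cspg4 (from -0.86), 0.13 for Tnr (from -1.32) and 0.30 for Ncan (from -0.30). It was -1.17 for Ptprz1 (from -1.13), -1.14 for Bcan (from -1.12), 1.1 for Tnc (from 0.78), -0.35 for Xylt1 (from -0.53) and -0.08 for Acan (from -0.20). At HS 1 week the log2 change was 1.59 for Ncan (from 0.73), 1.74 for Tnc (from 1.5), 0.021 for Bcan (from -0.30), 0.27 for Tnr (from -0.45) and -0.93 for Vcan (from -0.92). The part of progenitor or ependymal RNA in these differences was not tested.

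**Figure D3:**
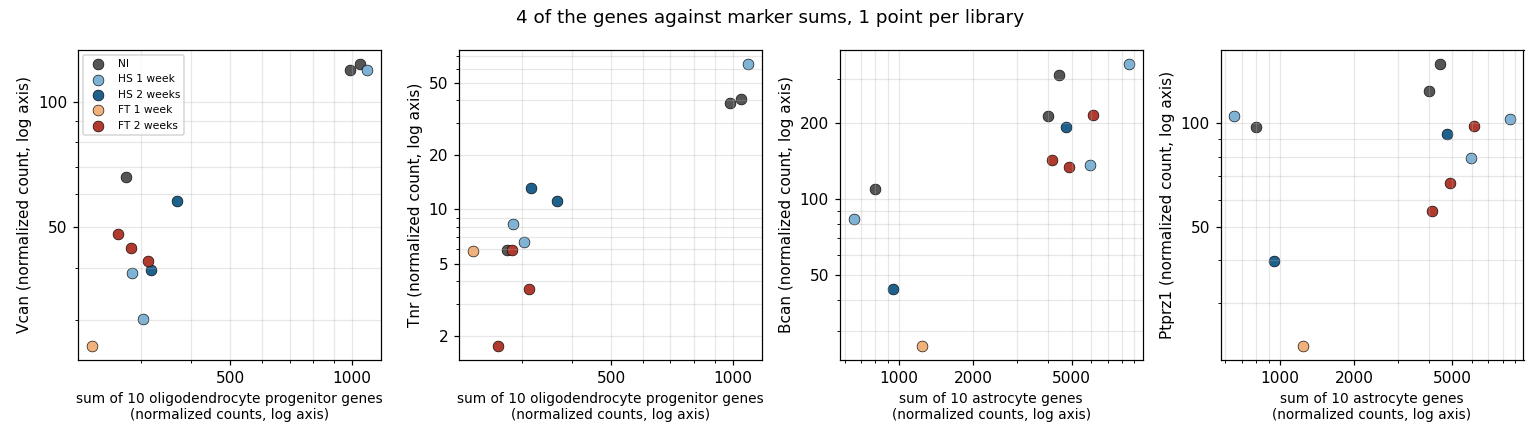
Normalized counts of Vcan and Tnr against the sum of 10 oligodendrocyte progenitor markers, and of Bcan and Ptprz1 against the sum of 10 astrocyte markers, with 1 point per library and log axes. NI replicates 2 and 3 and HS 1 week replicate 3 stand apart at the upper right for Vcan (119 to 124) and Tnr (38.5 to 63.9), and the 4 libraries with an astrocyte sum of at most 1242 are the 4 lowest for Bcan.

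None of the 20 other enzymes in the table that build, extend or sulfate the chain was called by limma-trend in any comparison with NI. Of all genes, 0.0061% to 0.452% were called in these comparisons. At an unadjusted p under 0.05, 1 of the 20 was lower at HS 1 week (3.35% of all genes) and 1 at HS 2 weeks (3.66%). The numbers lower were 2 at FT 1 week (6.65%), 3 at FT 2 weeks (5.93%) and 4 over all injured groups (7.1%). Of these Ust, which sulfates the uronic acid of the chain, had a log2 change of -2.05 ± 0.65 (SE; limma-trend adjusted p = 0.347) at FT 2 weeks. It was called there by the likelihood ratio test (2.22% of all genes) and DESeq2 (2.03%). Ust was highest in the 3 libraries with high progenitor sums, at 40.8, 31.5 and 30.1 normalized counts against at most 9.67 elsewhere. Csgalnact1, which adds the first N-acetylgalactosamine of the chain, was at -2.05 (0.276) at FT 1 week. The chain polymerase Chsy1 was at -0.73 (0.569) at HS 1 week, and the sulfotransferase Chst7 at -1.44 (0.387) at FT 2 weeks. Chst7 was near the floor, at 0.864, 3.26 and 3.31 normalized counts in NI and 0.073, 0 and 0.593 at FT 2 weeks. Its 3 highest libraries were also those with high progenitor sums, with HS 1 week replicate 3 at 2.57 and HS 2 weeks replicate 1 next at 2.06. The summed level of the 20 enzymes stayed between 250 and 374 normalized counts in all libraries, a narrower range than that of the members.

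Of 11 hyaluronan enzymes, link proteins and receptors, 0 were called by limma-trend, the likelihood ratio test or DESeq2 in any comparison with NI. Of all genes, limma-trend called 0.0061% to 0.452% in these comparisons, the likelihood ratio test 0.372% to 4.09% and DESeq2 0.513% to 3.31%. At HS 2 weeks Hapln3 was at -0.96 (limma-trend adjusted p = 0.528) and Hapln4, a link protein that binds brevican, at 1.13 (0.628), both with an unadjusted p under 0.05. Hapln4 was at 4.98 and 0.879 normalized counts there, against 0.314, 0.830 and 0.504 in NI, and without HS 2 weeks replicate 1 its log2 change was 0.29. Hmmr was at -0.80 (0.507) at FT 2 weeks and Hapln1 at -1.16 (0.507) at FT 1 week. Of the 5 receptors of the chains or their partners, 0 were called by limma-trend in any comparison with NI (0.0061% to 0.452% of all genes). Lingo1, a co-receptor of the Nogo receptor, was lower at an unadjusted p under 0.05 in several comparisons. It was at 4.24, 4.92 and 3.60 normalized counts in NI and at 0.94 to 2.43 in all 9 injured libraries. Its log2 change over all injured groups was -0.99 ± 0.20 (SE; limma-trend adjusted p = 0.072). It was called there by the likelihood ratio test (4.09% of all genes) and DESeq2 (3.31%). Ptprs, the receptor phosphatase that binds the chains, was at -0.44 (0.414) at FT 2 weeks. Rtn4rl1 was at -1.44 (0.584) at FT 2 weeks and Ptprf at 0.77 (0.535) at FT 1 week. Rtn4rl1 was at 1.49, 13.8 and 15.8 normalized counts in NI and at 2.19, 2.10 and 2.15 at FT 2 weeks. NI replicate 1 was thus below every FT 2 weeks library, and only NI replicates 2 and 3 were above.

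Of 10 other core proteins, 0 were called by limma-trend in any comparison with NI (0.0061% to 0.452% of all genes). Bgn was at -1.37 ± 0.37 (SE; limma-trend adjusted p = 0.18) at FT 1 week, Thbd at -1.23 (0.643) and Cd74, the invariant chain of antigen presentation, at -2.35 (0.598) at HS 1 week, and Dcn, a fibroblast proteoglycan, at 2.89 (0.448) at FT 2 weeks. Dcn was at 5140.0, 373 and 277 normalized counts in NI and at 4185, 8846 and 5888 at FT 2 weeks, so the groups overlapped, and its log2 change was 4.22 when NI replicate 1 was left out and 2.12 when NI replicate 3 was. The FT 1 week library, with its high microglia and macrophage sum, had Cd74 at 6252 normalized counts, against 785, 518 and 839 in NI. The likelihood ratio test called Cd74 higher there (1.81% of all genes), and DESeq2 did not (2.26%). The FT 2 weeks libraries had pericyte and fibroblast sums of 1902 to 2786 against 261 to 1906 in NI. Of 10 other tenascins and tenascin receptors, 0 were called by limma-trend in any comparison with NI (0.0061% to 0.452% of all genes). Cntn1, the contactin that binds Tnr and Ptprz1, was at -2.28 ± 0.56 (SE; limma-trend adjusted p = 0.135) at FT 1 week. It was at 22.3 normalized counts against 60.0, 144 and 163 in NI. Cntn1 was called there by the likelihood ratio test (1.81% of all genes) and DESeq2 (2.26%). The integrin Itga9, which binds Tnc, was at -1.61 (0.38) at FT 2 weeks. It was called there by the likelihood ratio test (2.22% of all genes) but not by DESeq2 (2.03%). Itgb3 was at -0.69 (0.404) and Itga8 at 1.01 (0.347) at FT 2 weeks. Itga9 and Cntn1 were highest in the 3 libraries with high progenitor sums. Itga9 was there at 41.5, 50.3 and 28.0 normalized counts, against at most 15.3 elsewhere. Cntn1 was there at 144, 163 and 131, against at most 88.3 elsewhere.

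Of 11 proteases that cut lecticans and their inhibitors, 0 were called by limma-trend in any comparison with NI (0.0061% to 0.452% of all genes). Mmp9, a secreted gelatinase, had a log2 change of -3.63 ± 0.69 (SE; limma-trend adjusted p = 0.152) at FT 2 weeks. It was called there by the likelihood ratio test (2.22% of all genes) and DESeq2 (2.03%). Mmp9 was at 10.5, 37.9 and 42.4 normalized counts in NI against 1.02, 1.40 and 1.11 at FT 2 weeks. Adamts4, an aggrecanase that cleaves brevican, was at 167, 101 and 139 in NI and at 374, 299 and 267 at HS 1 week, with no overlap and a log2 change of 1.22 ± 0.35 (SE; adjusted p = 0.467). Over all injured groups Adamts4 was at 1.16 ± 0.29 (0.126). It was called there by the likelihood ratio test (4.09% of all genes) and DESeq2 (3.31%). Timp3 was at -1.86 (0.297) at FT 1 week and Mmp2 at 1.11 (0.428) at FT 2 weeks.

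The library profiles of the members were compared with those of other genes by the root mean square difference of centred log2(normalized count + 1) values over the 12 libraries, as a description of likeness. Bcan was nearest to Slc25a18, a mitochondrial glutamate carrier, at 0.176, and to the endothelin receptor Ednrb at 0.224. The median over the 11257 genes compared was 1.09. Ptprz1 was nearest to Pcdh7 (0.214) and Arpp21 (0.236), and Ncan to the adhesion molecule Nrcam (0.294) and the urea transporter Slc14a1 (0.314). Vcan was nearest to cyclin D2, Ccnd2 (0.224), and to Sox6 (0.252), a transcription factor that is itself on the progenitor marker list. Tnr was nearest to 1810041L15Rik (0.379) and Rtn1 (0.412), both with their 3 highest values in the same 3 libraries as Tnr. Cspg5 was nearest to Grin3a (0.272) and Dpp6 (0.317), and Cspg4 to Cbfa2t3 (0.368) and Calhm2 (0.373). Tnc had no very close gene, with Cd109 at 0.362 and Hspb6 at 0.405 against its own root mean square of 0.669. Of the low members, Acan was nearest to Usp19 (0.12), against its own root mean square of 0.236. Xylt1 was nearest to Dchs1 (0.179) and Wdr5 (0.217), against its own 0.428. All profiles share library depth and scaling.

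**Figure D4:**
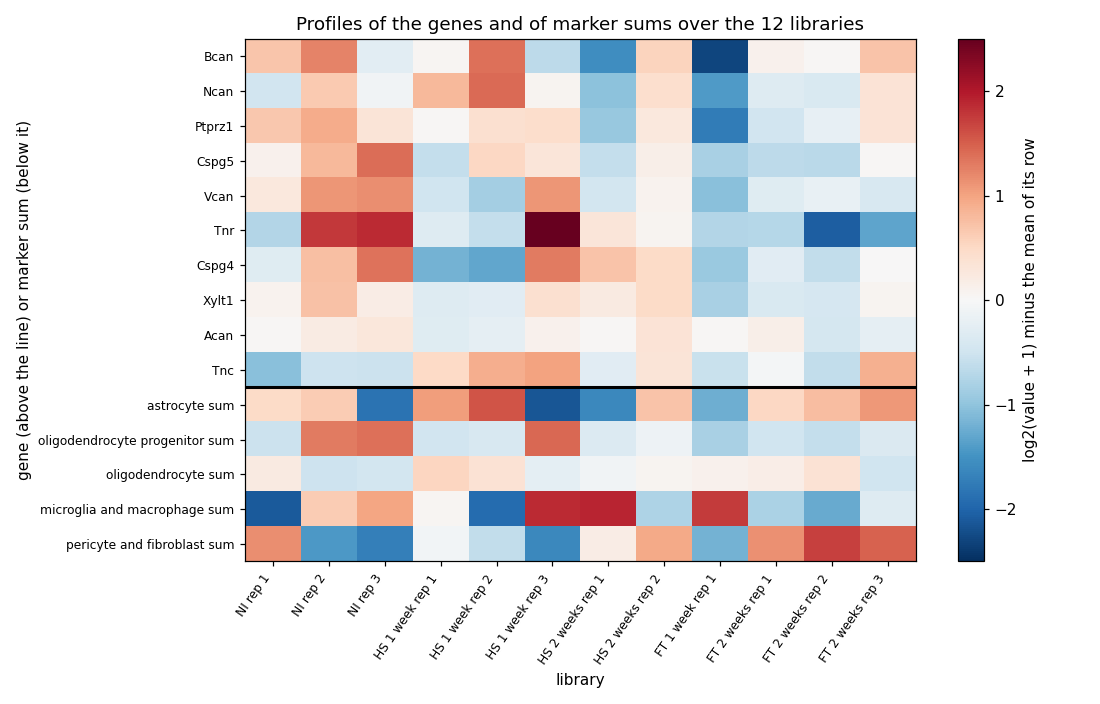
Centred log2(value + 1) of the 10 genes (above the line) and of 5 marker sums (below it) in each library; red is above and blue below the mean of the row. Tnr spans from -2.07 in FT 2 weeks replicate 2 to 2.49 in HS 1 week replicate 3, and Bcan is at -2.29 in the FT 1 week library.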

How the data were processed

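RNA of sorted eGFP+ cells was amplified with a SMARTer ultra low input kit, made into Nextera libraries and sequenced in 12 libraries. According to the study's methods and the submitters' processing notes, reads were mapped to mm10 with TopHat2 2.0.9 and counted per gene with HTSeq 0.5.4p3, genes with very few counts were removed, and counts were normalized by library size with edgeR 3.3.6. The table deposited by the authors holds this signal, normalized counts per gene and library. Dividing by the smallest step of each library gave whole reads for 100% of values (tolerance 1e-06), and these recovered reads were used for depth and for the count tests. Groups came from the labels.

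The main test was limma-trend (limma 3.58.1, R 4.3.3) on log2(normalized count + 1) with 1 model of 5 groups over all 12 libraries, on genes whose mean normalized count reached 0.5 in 1 or more groups, with Benjamini-Hochberg adjustment over all 16388 genes tested. Fold changes are on this scale, which understates changes of low genes. FT 1 week has 1 library, assumed to vary like the rest. The count tests on recovered reads, as alternatives, were the edgeR quasi-likelihood and likelihood ratio tests (edgeR 4.0.16) and DESeq2 1.42.0. The scripts were tested on simulated data. Other settings were the pseudocount, the filter, the scaling, library weights, a replicate block and leaving out each library. Depth (8270643 to 15562378 reads) leaves Acan, Xylt1 and Tnc with few reads. Named genes were all members, the called or else up to 4 lowest-p genes of each list in comparisons with NI, and the 2 genes nearest to each member with a mean of at least 5, of which 1 is not reported here. The members and lists were chosen with earlier results of these data known. Genome positions are from GENCODE M21 (GRCm38, the build of mm10). Chst13, Has1, Cemip, Rtn4rl2, Mmp3, Kcnj8, Slc32a1 and Dnah11 were not analysed here.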

Additional observations from a re-analysis of the deposited data

How the results depend on the processing

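Over 50 member changes from NI and 1240 values under other settings, 1171 kept direction and call, 34 became called, and 35 turned direction; 37 of the 50 never turned. Array quality weights called 5 members at HS 1 week, 5 at FT 1 week, 3 at FT 2 weeks, 6 over all injured groups and 2 for FT vs HS at 1 week, where it called 1267, 928, 1447, 1199 and 227 of all genes. DESeq2 called 1, 2, 1, 2 and 1 in the same comparisons, the edgeR likelihood ratio test 1 at FT 1 week, 1 at FT 2 weeks and 3 over all injured groups, and a model of the compared groups alone 3 for FT 2 weeks vs 1 week (1575 of all genes). Leaving out 1 library at a time gave 0 to 1 at FT 1 week (Ptprz1, without HS 1 week replicate 3 or either HS 2 weeks replicate) and 0 to 1 over all injured groups (Vcan, without HS 1 week replicate 3). The causes were not tested.

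Without the 3 libraries with high progenitor sums, the log2 changes that turned direction were 0.021 (Bcan) and 0.27 (Tnr) at HS 1 week, 0.18 (Ncan), 0.89 (Cspg4) and 0.91 (Tnr) at HS 2 weeks, 0.0045 (Acan) at FT 1 week, 0.36 (Ncan) at FT 2 weeks, and 0.30 (Ncan) and 0.13 (Tnr) over all injured groups. Equal column totals gave -0.094 (Acan) and -0.12 (Xylt1) at HS 2 weeks and -0.079 (Tnc) at FT 1 week, quality weights -0.034 (Acan) and -0.16 (Xylt1) at HS 2 weeks, median ratio scaling 0.0077 (Cspg4), and the quasi-likelihood test, likelihood ratio test and DESeq2 -0.018, -0.019 and -0.0051 for Xylt1 there. Leaving out 1 library moved the log2 change between -0.85 and 0.16 (Bcan) and -1.43 and 0.12 (Tnr) at HS 1 week. At HS 2 weeks it moved between -0.14 and 0.16 (Acan), -1.06 and 0.39 (Ncan), -0.45 and 0.37 (Cspg4) and -0.12 and 0.21 (Xylt1). It moved between -0.033 and 0.23 (Tnc) at FT 1 week, -0.68 and 0.068 (Bcan) and -0.41 and 0.16 (Ncan) at FT 2 weeks, and -0.56 and 0.016 (Ncan) over all injured groups.

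The labels do not say whether libraries with the same replicate number belong together. Of 15 same-numbered pairs, 5 correlated above 0.1 (range -0.48 to 0.72). These pairs share libraries and are not independent, so they do not settle it. The replicate block, without FT 1 week, called 0 members in each of its 5 comparisons and turned Cspg4 at HS 2 weeks to 0.45. Comparisons with FT 1 week have no value under the block or without that library. Over all genes, the count of calls ran from 0 to 1267 at HS 1 week, 0 to 124 at HS 2 weeks, 0 to 928 at FT 1 week, 0 to 1447 at FT 2 weeks, 1 to 1199 over all injured groups, 0 to 227 for FT vs HS at 1 week and 36 to 1575 for FT 2 weeks vs 1 week.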
